A study of Rattus norvegicus with 4 samples.

Results

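The kidney of a rat that had received puromycin aminonucleoside and then repeated rounds of a low-salt diet that mimics fasting was compared with the kidney of an untreated rat, gene by gene. The 10x Visium assay captures RNA on a slide of barcoded spots, each of which can cover a mix of cells. The members of the comparison were the 9993 genes, of 32402 in the feature tables, that had at least 200 UMIs (unique molecular identifiers, 1 per RNA molecule caught) over all spots of both sections, counting spots with at least 500 UMIs. UMIs were summed per gene and section and scaled to a total of 1000000 per section (CPM).

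All groups were Sprague-Dawley rats, and each gave 1 frozen kidney section of 10 µm. The group PAN_LS-FMD had been injected with puromycin aminonucleoside (PAN), had gone through 6 cycles of the low-salt fasting-mimicking diet (LS-FMD), and was taken when 5 months had passed since the injection and 6 weeks since treatment ended. The group healthy had no treatment. A second uninjected section, healthy_LS-FMD, came from a rat fed 1 such cycle and then refed for 72 h, and each difference from healthy was checked against it. The group PAN had the injection, with food at will, and the same times as PAN_LS-FMD. Sex and age were not stated in the labels, and the Y-linked genes Eif2s3y and Kdm5d had UMIs in all 4 sections.

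With 1 section a group there was no test between animals. Every interval covers counting error only, and the injection, the diet, the animal and the cut of the section cannot be told apart. Visium also cannot tell fewer cells of a type from less RNA per cell.

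Puromycin aminonucleoside is a toxin of the podocyte, the cell whose interlocking foot processes and slit diaphragm hold protein back in the glomerulus. The slit diaphragm is built on nephrin (Nphs1), and the transcription factor Wt1 maintains the podocyte. After podocyte loss, protein leaks into the tubule, and injured tubules, macrophages and collagen-producing cells follow in long-standing disease.

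The PAN_LS-FMD section had 2187 spots and 34965670 UMIs, a median of 14959 UMIs and 4244 genes per spot. The healthy section had 2866 spots and 58568499 UMIs, a median of 19531 UMIs and 4552.5 genes per spot. The healthy_LS-FMD and PAN sections were shallower, with 25330872 and 24924170 UMIs. A count of 3, the floor for a gene with no UMIs, was worth 0.0858 CPM in PAN_LS-FMD, 0.0512 in healthy, 0.118 in healthy_LS-FMD and 0.120 in PAN. Haemoglobin genes took 1.59% of UMIs in the healthy section and between 0.161% and 0.234% in the other 3. Mitochondrially encoded genes took 3.40% in PAN_LS-FMD, 4.88% in healthy, 5.17% in healthy_LS-FMD and 3.02% in PAN. The healthy matrix was made with Space Ranger 2.0.1 and the other 3 with 1.2.1, so version and group cannot be told apart in comparisons with healthy. Kidney markers were present in both sections, with 16 of 16 proximal tubule S1 and S2 markers, 22 of 28 podocyte markers and 8 of 10 thick ascending limb markers measured.

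Most genes lay close to the untreated level. A gene was called where its CPM differed by at least 1.5-fold with a 95% counting interval that excluded 1. By that rule 825 of 9993 genes (8.26%) were called, 533 higher (5.33%) and 292 lower (2.92%) in PAN_LS-FMD. The PAN section, by the same rule, differed from healthy at 53.2% of 10195 genes, and healthy_LS-FMD differed from healthy at 31.3% of 9947 genes. Called genes made up 5.20% of the UMIs of the PAN_LS-FMD section and 6.81% of those of the healthy section. They were mostly low, with a median of 8.96 CPM in healthy against 25.5 CPM over all genes compared. Among the called genes, 233 differed by at least 2-fold, 69 by at least 4-fold and 33 by at least 8-fold. Of 128 genes with 200 to 219 UMIs, just inside the minimum, 28 were called, and of 128 genes with 180 to 199 UMIs, just outside it, 33 would have been.

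The median log2 fold over all genes compared was 0.12 against healthy and -0.18 against healthy_LS-FMD. Scaled to the median of ratios instead of the total, the median against healthy was -0.01, and the split of calls turned from 64.6% higher to 42.0% higher, with 300 genes higher and 415 lower. Counts of higher and lower genes are therefore read against these medians.

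**Figure D1:**
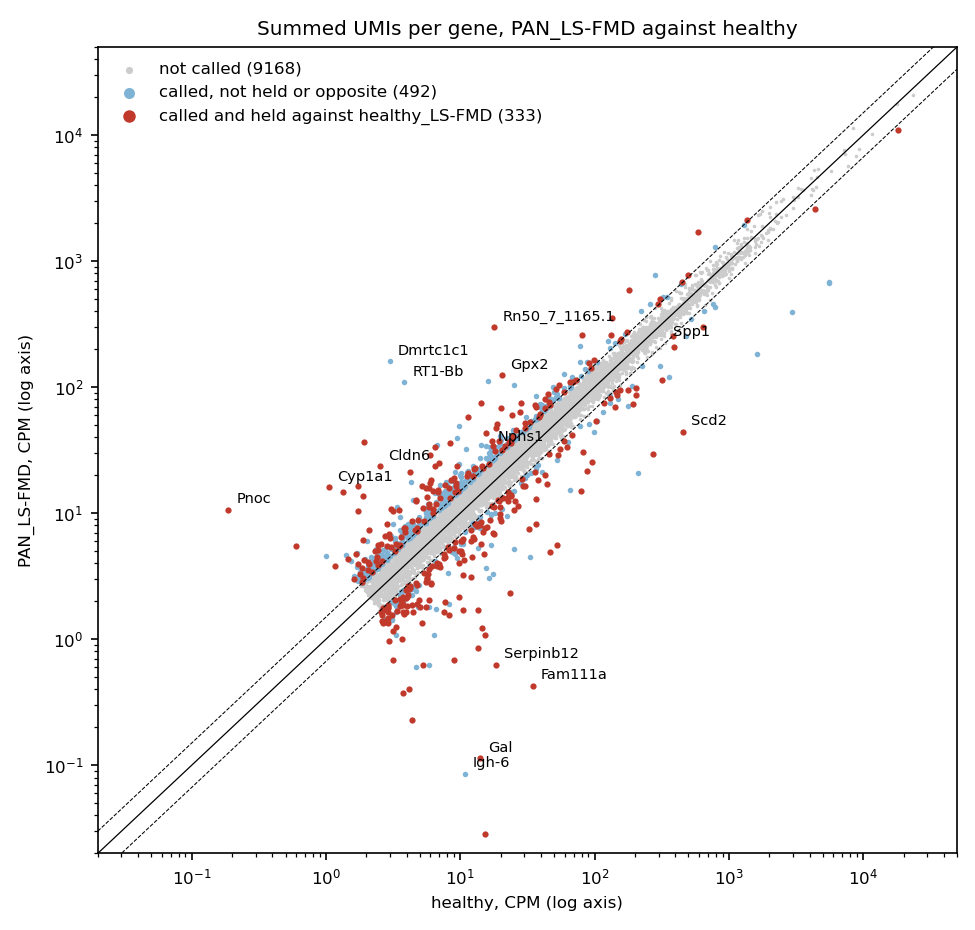
Each point is 1 of the 9993 genes, with its CPM in healthy on the x axis and in PAN_LS-FMD on the y axis, both on log axes; the solid line marks equal levels and the dashed lines 1.5-fold either way. Most points lie between the dashed lines, and the 333 red points are called genes that also differed the same way from healthy_LS-FMD.

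Fewer than the called genes differed from both uninjected sections. A called gene was held where PAN_LS-FMD was at least 1.5-fold off healthy_LS-FMD in the same direction with an interval that excluded 1. Against healthy_LS-FMD, 2089 of the same 9993 genes (20.9%) passed that rule. Of the 825 called genes, 333 (40.4%) were held, 428 were not held, and 64 were at least 1.5-fold off in the opposite direction. The share was smaller among higher genes, with 155 of 533 held (29.1%), than among lower genes, with 178 of 292 held (61.0%). The background differed in the same way. Of all 12977 genes with at least 20 UMIs in PAN_LS-FMD and healthy together, 5.97% were higher and 17.3% lower than healthy_LS-FMD. The difference between the held shares was not tested, and both comparisons share the PAN_LS-FMD section. Of the 233 genes that differed by at least 2-fold 152 were held, of the 69 at 4-fold 44, and of the 33 at 8-fold 25.

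The highest held gene was Pnoc, which encodes the precursor of the peptide nociceptin. It stood at 10.7 CPM in PAN_LS-FMD, 0.188 in healthy and 0.158 in healthy_LS-FMD, and at 12.04 CPM in PAN. The fold over healthy was 57.0 (31.5 to 115). Both injected sections were high and both uninjected sections were near their floor. Pnoc had UMIs in 11.6% of PAN_LS-FMD spots and 0.384% of healthy spots, and in cortex spots PAN_LS-FMD had 227 UMIs and healthy none. With the floor of 3 counts in place of healthy's 0, the ratio in cortex spots was 125, and the lower limit of its counting interval was 101.

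Cyp1a1, a cytochrome P450 that oxidises foreign aromatic compounds and is switched on by the aryl hydrocarbon receptor, was high in 1 section. It stood at 16.02 CPM in PAN_LS-FMD, 1.06 in healthy, 1.58 in healthy_LS-FMD and 0.321 in PAN. The fold over healthy was 15.1, with a lower counting bound of 11.6 and 560 UMIs over 18.7% of the spots. Zones behaved alike, with folds of 13.5 in cortex, 14.8 in outer stripe and 20.1 in medulla spots.

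Gpx2 encodes a glutathione peroxidase and belongs to the genes that NRF2 switches on under oxidative stress. Its level was 124 CPM in PAN_LS-FMD, 20.5 in healthy, 9.59 in healthy_LS-FMD and 152 in PAN. The fold over healthy was 6.04 (5.67 to 6.45), and it was 5.76, 6.16 and 6.40 in cortex, outer stripe and medulla spots. Again the injected sections stood together above the uninjected ones. The haem oxygenase gene Hmox1, from the same family of stress genes, was also held, at 10.7 CPM in PAN_LS-FMD against 3.52 in healthy and 5.09 in healthy_LS-FMD, 3.04-fold (2.56 to 3.62) over healthy. Of the 21 measured genes of the glutathione and antioxidant list, however, 3 were higher and 18 were neither, with a median log2 fold of 0.23. Only 1 of the 3 was held, so Gpx2 and Hmox1 are not both in that list. Scaled to the median of ratios, 1 member was higher and 1 lower. Nqo1 went the other way, at 0.695-fold of healthy and 0.638-fold of healthy_LS-FMD. It was not called by total, and by the median of ratios it was called lower than healthy, at 0.636-fold (0.583 to 0.693), and not held.

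Cldn6 encodes a claudin, a tight junction protein typical of embryonic epithelium. It stood at 23.7 CPM in PAN_LS-FMD, 2.51 in healthy, 3.47 in healthy_LS-FMD and 18.3 in PAN, 9.46-fold (7.93 to 11.3) over healthy. Its neighbours on chromosome 10, Cldn9 and the TWEAK receptor gene Tnfrsf12a, were held in the same direction. Cxcl13, a chemokine that draws B cells, stood at 13.8 CPM against 1.90 in healthy and 2.01 in healthy_LS-FMD, with 23.2 in PAN, and its fold was 7.26 (5.89 to 9.01). Cxcl13 was not confined to a few spots: 17.9% of PAN_LS-FMD spots had a UMI, and the 10 richest spots held 7.69% of its UMIs.

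Other held genes with high folds have roles in signalling and the cytoskeleton. Vegfb, a vascular endothelial growth factor, stood at 16.5 CPM in PAN_LS-FMD, 1.74 in healthy, 3.51 in healthy_LS-FMD and 8.83 in PAN, 9.46-fold (7.65 to 11.8) over healthy. Wisp3, a secreted matrix-associated protein of the CCN family, stood at 14.8 CPM against 1.35 in healthy, 0.197 in healthy_LS-FMD and 2.53 in PAN. Tube1, which encodes epsilon-tubulin and lies beside Wisp3 on chromosome 20, stood at 33.5 CPM against 6.47, 8.92 and 17.6 in the same order. The folds over healthy were 10.98 for Wisp3 and 5.18 for Tube1, and another neighbour, Fam229b, was held as well. Bcl2l15, of the BCL2 family, was 6.05-fold (4.84 to 7.62) over healthy. Also high were Zmym6nb, 36.6 CPM against 1.91 in healthy and 12.9 in healthy_LS-FMD, and the transcript Rn50_7_1165.1, 301 CPM against 17.9 and 38.0. Zmym6nb was 19.1-fold (15.7 to 23.4) and Rn50_7_1165.1 16.9-fold (15.8 to 18.0) over healthy.

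Among the 12 lowest held genes, chosen with mitochondrial genes left out, Scd2 had the most UMIs. Scd2 encodes a stearoyl-CoA desaturase, an enzyme that makes monounsaturated fatty acids. Its level was 44.4 CPM in PAN_LS-FMD, 455 in healthy, 533 in healthy_LS-FMD and 193 in PAN. PAN_LS-FMD was lower than healthy by 10.2-fold (9.74 to 10.8), and lower by 8.62-fold, 12.8-fold and 7.87-fold in cortex, outer stripe and medulla spots. It was the lowest of the 4 sections, with PAN between it and the uninjected sections. Scd2 had UMIs in 47.9% of PAN_LS-FMD spots and 98.9% of healthy spots.

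The gene start of Gpx2, high in both injected sections, and that of Scd2, low in PAN_LS-FMD, are shown as examples of a higher and a lower held gene. Each is 250 bases before and 50 bases after the start, 5′ to 3′, from the RefSeq table for build GRCr8, where Gpx2 is at chr6:101229984-101230283 on the minus strand and Scd2 at chr1:253118127-253118426 on the plus strand. Capitals mark matches to TGACNNNGC, the core of the antioxidant response element, searched on both strands.
Gpx2: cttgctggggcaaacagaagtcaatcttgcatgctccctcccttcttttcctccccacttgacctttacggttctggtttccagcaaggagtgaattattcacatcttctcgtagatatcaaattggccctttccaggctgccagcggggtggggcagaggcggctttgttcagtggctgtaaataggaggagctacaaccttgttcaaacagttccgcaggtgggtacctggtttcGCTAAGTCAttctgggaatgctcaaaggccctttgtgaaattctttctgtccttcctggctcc
Scd2: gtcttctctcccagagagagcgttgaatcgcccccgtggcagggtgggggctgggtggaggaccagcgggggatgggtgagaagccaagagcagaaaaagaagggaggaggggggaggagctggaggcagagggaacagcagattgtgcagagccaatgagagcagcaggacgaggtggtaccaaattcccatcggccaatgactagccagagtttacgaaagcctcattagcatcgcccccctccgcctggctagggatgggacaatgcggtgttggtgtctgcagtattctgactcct
Gpx2 has 1 such match and Scd2 has none. The motif was found in 12.1% of all 33469 windows of the table and in 4 of the 13 windows found for the 24 held genes that the rule for named genes takes. The xenobiotic response core GCGTG was in 29.7% of all windows and in 4 of the 13, and TATAAA was in 14.2% and in 2 of the 13, on either strand. A match describes the letters only, and the Visium assay reads the ends of transcripts, not promoters.

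Several held genes were nearly silent in PAN_LS-FMD. Fam111a, a protease gene whose changes cause a disorder of bone and mineral balance, stood at 0.429 CPM in PAN_LS-FMD, 34.7 in healthy, 57.1 in healthy_LS-FMD and 2.33 in PAN. It was lower than in healthy by 80.9-fold (48.9 to 145), with 15 UMIs against 2032. Gal, which encodes the neuropeptide galanin, stood at 0.114 CPM in PAN_LS-FMD, 14.0 in healthy, 1.86 in healthy_LS-FMD and 0.241 in PAN. Gal was lower by 122-fold (47.6 to 450), and the uninjected sections themselves lay far apart. The transcript Rn60_7_1214.2 had 1 UMI in PAN_LS-FMD and 897 in healthy, a ratio of 536 (95.9 to 21175). At 12.8 CPM in healthy_LS-FMD and 16.1 in PAN, it was low in the PAN_LS-FMD section and in no other.

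Serpinb12, a protease inhibitor of the serpin family, stood at 0.629 CPM in PAN_LS-FMD, 18.3 in healthy, 16.4 in healthy_LS-FMD and 0.281 in PAN, lower than healthy by 29.1-fold (19.1 to 46.7). Stk32c, a protein kinase gene, stood at 0.858 CPM in PAN_LS-FMD, 13.7 in healthy, 17.2 in healthy_LS-FMD and 1.32 in PAN. For both genes the injected sections were low and the uninjected ones high. Prcp encodes prolylcarboxypeptidase, which cleaves angiotensin II, and stood at 1.09 CPM against 15.2 in healthy, 10.6 in healthy_LS-FMD and 5.90 in PAN, lower than healthy by 14.0-fold (10.1 to 19.9). Akr1b10, an aldo-keto reductase, was lower by 13.2-fold (8.75 to 20.7). Tmem125, a membrane protein gene with 2 identifiers in the feature table, was lower by 11.7-fold (8.63 to 16.3) at the identifier with more UMIs.

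Actg2, a smooth muscle actin, was at 0.400 CPM in PAN_LS-FMD, 4.18 in healthy, 2.72 in healthy_LS-FMD and 9.03 in PAN. Slit1, a guidance cue for axons, was at 0.372, 3.72, 5.13 and 6.42 CPM in the same order. Both were lowest in PAN_LS-FMD and highest in PAN. Actg2 had 14 UMIs in PAN_LS-FMD, and its level elsewhere rested in large part on few spots. The 10 richest spots held 37.6% of its UMIs in healthy, and 44.9% in healthy_LS-FMD and in PAN.

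**Figure D2:**
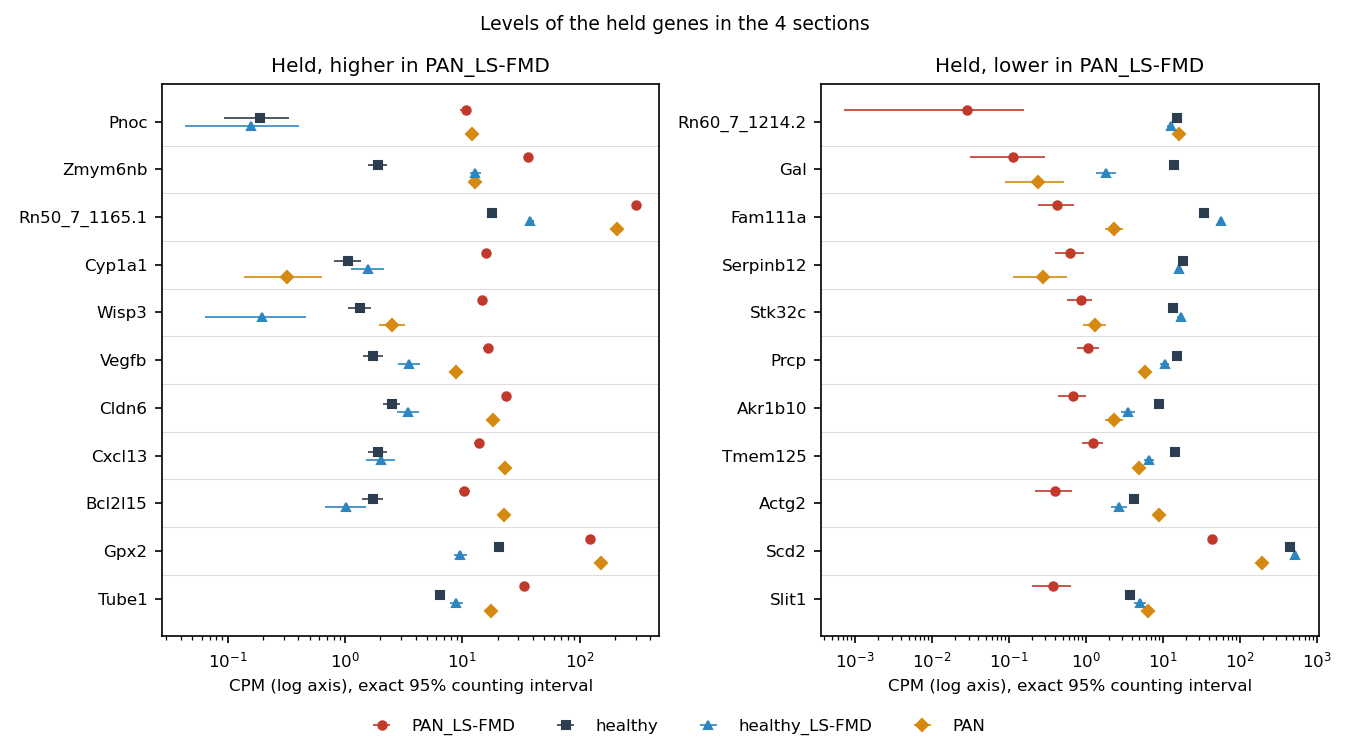
CPM on a log axis with its exact 95% counting interval for 11 of the highest (left) and 11 of the lowest (right) held genes, in all 4 sections. On the left PAN_LS-FMD lies to the right of both uninjected sections, at 10.7 against 0.188 CPM for Pnoc, and on the right it lies to their left, at 44.4 against 455 CPM for Scd2.

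Spots were given to cortex, outer stripe or medulla by the highest of 3 marker scores within each section, so the names stand for marker scores and not for traced anatomy. Cortex, outer stripe and medulla made up 40.1%, 37.8% and 22.1% of spots in PAN_LS-FMD, 37.6%, 41.3% and 21.1% in healthy, and 34.1%, 31.4% and 34.6% in healthy_LS-FMD. The share of medulla spots was thus larger in healthy_LS-FMD than in both others. Scores were scaled within each section, so these shares do not compare marker levels between sections. In PAN 30.0% of spots were medulla spots, while its inner medulla and thin limb list summed to 425 CPM against 1304 in healthy. That sum did not follow most members: of 8 measured, 5 were higher in PAN than in healthy and 1 lower, with a median log2 fold of 0.86. All 24 held genes that the rule for named genes takes kept their direction against healthy in each of the 3 zones, but they had been chosen for their large folds over the same spots. In cortex spots 865 of 8376 genes (10.3%) were called and 239 held, in outer stripe spots 598 of 8737 (6.84%) and 281, and in medulla spots 553 of 7575 (7.3%) and 301. Most called genes of a zone were thus not held there in cortex and outer stripe spots.

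**Figure D3:**
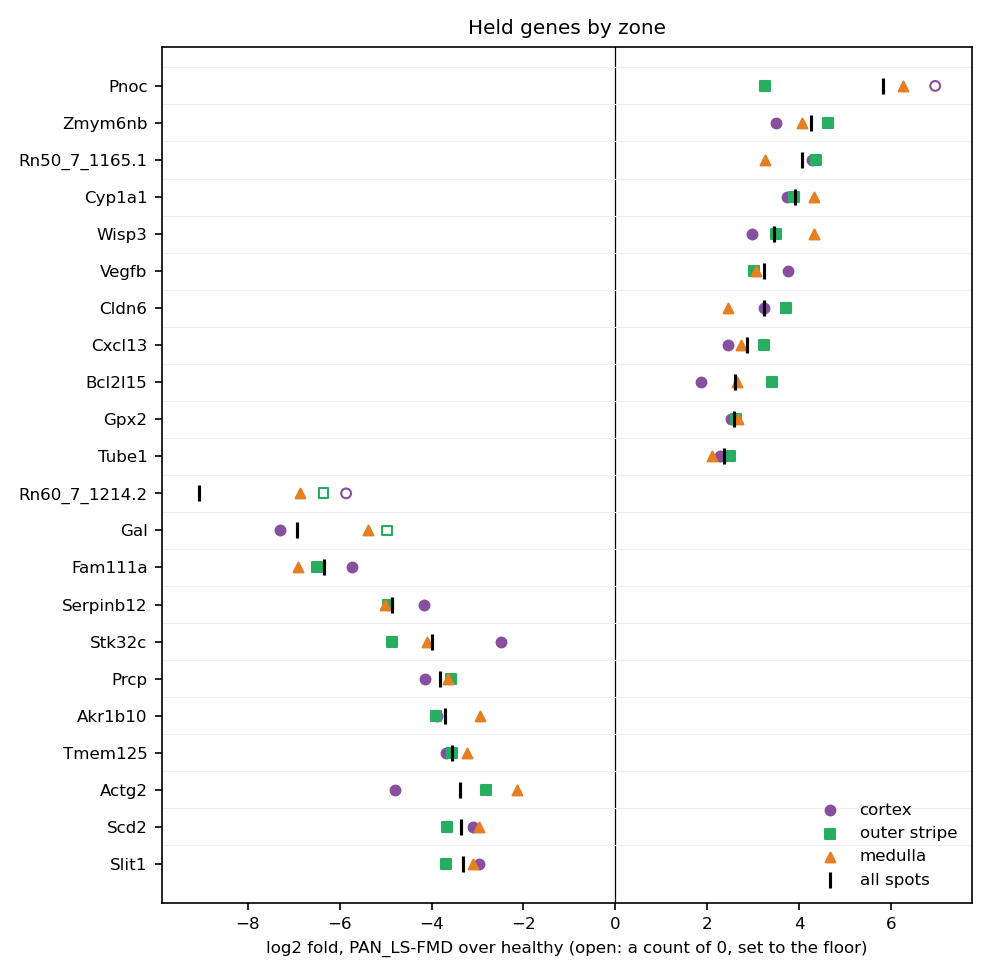
Log2 fold of PAN_LS-FMD over healthy on the x axis for 22 named held genes, in cortex (circles), outer stripe (squares) and medulla spots (triangles) and over all spots (black bars); open symbols are bounds from a count of 0. Every zone lies on the same side of 0 as the whole section, from 5.76-fold to 6.40-fold for Gpx2.

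Some held genes with high levels fall outside the rule for named genes and were chosen after their values were seen. Ppic, a cyclophilin, stood at 1707 CPM in PAN_LS-FMD, 586 in healthy, 592 in healthy_LS-FMD and 434 in PAN, 2.92-fold (2.88 to 2.95) over healthy. Tgm2, the cross-linking enzyme tissue transglutaminase, stood at 589 CPM against 180 in healthy, 148 in healthy_LS-FMD and 643 in PAN. Tgm2 was at like levels in the injected sections, whereas Ppic was high in PAN_LS-FMD and in no other section. The mitochondrially encoded genes Mt-cox3 and Mt-cytb were lower by 1.63-fold and 1.69-fold against healthy and were held. The 19 measured nuclear genes of oxidative phosphorylation were all neither higher nor lower, with a median log2 fold of -0.05.

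Some high folds over healthy were not seen against healthy_LS-FMD. Dmrtc1c1, a gene of the doublesex-related family, stood at 161 CPM in PAN_LS-FMD and 2.99 in healthy, 54.0-fold (46.4 to 63.1), and at 136 CPM in healthy_LS-FMD and 34.6 in PAN. RT1-Bb, an MHC class II beta chain, stood at 110 CPM in PAN_LS-FMD, 3.81 in healthy, 125 in healthy_LS-FMD and 49.3 in PAN, 28.8-fold (25.2 to 33.1) over healthy. RT1-T24-4, an MHC class I gene, was 6.95-fold and P3h3, a collagen prolyl hydroxylase, 5.16-fold over healthy, at 87.4 and 40.2 CPM in healthy_LS-FMD. In these 4 genes healthy was the low section and the other 3 stood above it. Genes of the RT1 complex have near-identical copies, among which reads can be split, so single RT1 levels are uncertain.

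Of the 6 lowest genes that did not hold, 4 were highest in the healthy section and 2 in PAN. Alas2, the first enzyme of haem synthesis in red-cell precursors, stood at 4.52 CPM in PAN_LS-FMD, 33.2 in healthy, 4.90 in healthy_LS-FMD and 3.33 in PAN, and Cd52, a surface protein of lymphocytes, at 0.629, 5.81, 0.711 and 1.00. Alox15, a lipoxygenase, was at 0.601, 4.66, 0.553 and 1.52 CPM, and Mfsd10, a membrane transporter, at 3.32, 17.6, 3.79 and 10.6. For each of these 4 healthy stood above the other 3 sections. Igh-6, an immunoglobulin heavy chain gene, had 3 UMIs in PAN_LS-FMD, 633 in healthy, 0 in healthy_LS-FMD and 1792 in PAN, a ratio of healthy to PAN_LS-FMD of 126 (42.9 to 612), and in healthy 65.2% of its UMIs lay in 10 spots. Car3, a carbonic anhydrase of fat and muscle, was lower than healthy by 5.83-fold (4.17 to 8.37) and stood at 34.9 CPM in PAN against 6.33 in healthy. Nhlh2, a helix-loop-helix factor, was 4.54-fold (3.35 to 6.23) higher. The 1.59% of UMIs in haemoglobin genes moved with Alas2 in the healthy section. The part of blood in the other genes was not tested.

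Podocyte genes were among those higher in PAN_LS-FMD than in the untreated kidney. Nphs1 stood at 33.3 CPM in PAN_LS-FMD, 16.5 in healthy, 28.7 in healthy_LS-FMD and 9.35 in PAN, 2.01-fold (1.85 to 2.20) over healthy. Wt1 stood at 18.1 CPM against 8.50, 13.3 and 6.26 in the same order, 2.13-fold (1.89 to 2.40). PAN_LS-FMD was the highest of the 4 sections in both genes and PAN the lowest. Podxl, which encodes podocalyxin, the charged coat of the podocyte, stood at 74.0 CPM against 59.4, 90.6 and 46.1 and was not called, at 1.25-fold (1.18 to 1.31).

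Of the 22 measured genes of the podocyte list, 6 were higher, none was lower and 16 were neither, with a median log2 fold of 0.52. For lists a member needed 20 UMIs over both sections, and over all 12977 such genes 6.8% were higher and 4.53% lower. Higher members beside Nphs1 and Wt1 included Ddn (dendrin, 1.83-fold), Cdkn1c (a cell cycle inhibitor kept by mature podocytes, 1.78-fold) and Robo2 (a receptor of Slit proteins, 1.68-fold). Against healthy_LS-FMD the list's median was 0.02, and 1 of its 22 members was held, against 1.97% of all list-rule genes held higher, while Cdkn1c was opposite. Scaled to the median of ratios, the list's median was 0.39 against healthy and 0.24 against healthy_LS-FMD, with 6 members higher than healthy, and Wt1 was then held. In the PAN section 8 of the 22 members were higher than healthy and 6 lower, with a median of 0.25. The low PAN levels of Nphs1, Wt1 and Podxl thus did not extend to the whole list. Over all list-rule genes the PAN median was 0.48, and 42.8% were higher.

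Podocyte RNA was counted by spot after each spot was thinned to 5000 UMIs, which left 2162 spots of PAN_LS-FMD, 2861 of healthy and 2206 of healthy_LS-FMD. Nphs1 was found in 22.9% (20.1 to 25.8) of thinned cortex spots in PAN_LS-FMD, 12.7% (10.8 to 14.9) in healthy and 22.2% (19.2 to 25.4) in healthy_LS-FMD. Unthinned, the shares of cortex spots were 41.2% in PAN_LS-FMD and 27.6% in healthy. In outer stripe spots the thinned shares were 3.45% in PAN_LS-FMD and 3.72% in healthy, with intervals that overlapped. In medulla spots they were 12.6% (9.76 to 15.9) in PAN_LS-FMD, 5.64% (3.94 to 7.79) in healthy and 5.50% (3.94 to 7.44) in healthy_LS-FMD, so spots with the medulla score also held podocyte RNA. At equal depth a larger share of PAN_LS-FMD than of healthy spots thus had nephrin RNA in cortex and in medulla, and healthy_LS-FMD lay near PAN_LS-FMD in cortex and near healthy in medulla. The folds of the summed levels followed the same zones: Nphs1 was 2.15-fold in cortex, 1.16-fold in outer stripe and 2.47-fold in medulla spots. Wt1 lay like Nphs1 in thinned medulla spots, in 7.35% of PAN_LS-FMD, 3.15% of healthy and 2.26% of healthy_LS-FMD spots. Podxl did not: its shares there were 34.5%, 29.9% and 41.7% in the same order, highest in healthy_LS-FMD. The list had 11 of 22 members higher in cortex, 0 of 22 in outer stripe and 12 of 20 in medulla spots. Over all genes of at least 20 UMIs in a zone, 10.6% were higher in cortex, 5.19% in outer stripe and 6.5% in medulla spots, and 3.06%, 4.92% and 4.16% were lower. The differences between zones were not tested.

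**Figure D4:**
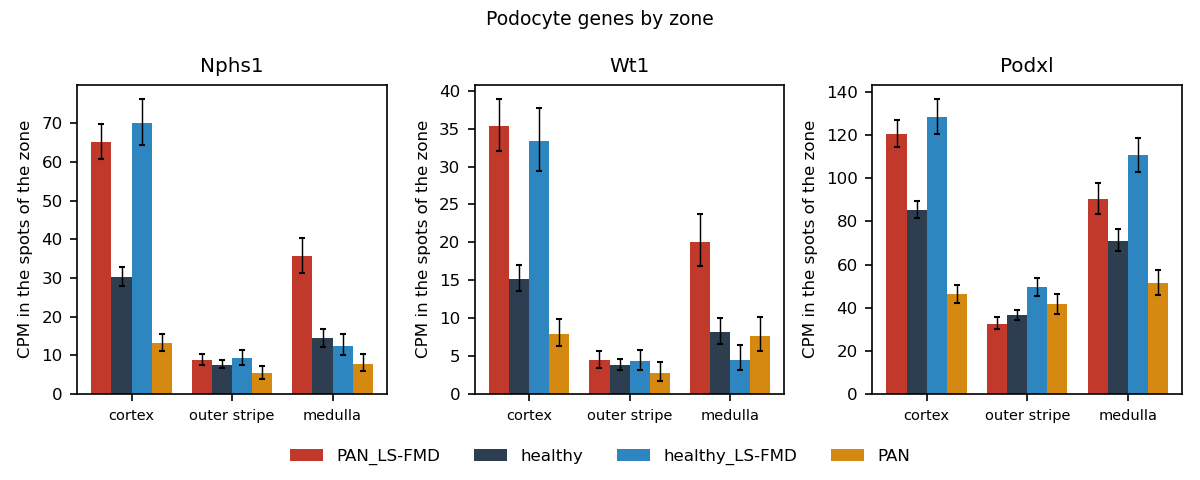
Summed CPM of Nphs1, Wt1 and Podxl in cortex, outer stripe and medulla spots of the 4 sections, with exact 95% counting intervals as error bars. In cortex spots PAN_LS-FMD stands above healthy in all 3 panels, at 65.1 against 30.3 CPM for Nphs1. In outer stripe spots PAN_LS-FMD and healthy lie closer together, at 8.78 and 7.60 CPM for Nphs1. Podxl there ranges from 32.7 CPM in PAN_LS-FMD to 49.5 in healthy_LS-FMD.

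Genes of tubular injury and scarring were far below the PAN level. Havcr1, which encodes kidney injury molecule 1, stood at 6.21 CPM in PAN_LS-FMD, 8.43 in healthy, 5.49 in healthy_LS-FMD and 218.5 in PAN. Lcn2, the injury marker lipocalin 2, stood at 9.98, 9.63, 15.9 and 222 CPM in the same order. Spp1, which encodes osteopontin, stood at 225, 332, 1292 and 17165 CPM, and Col1a1, a chain of type I collagen, at 33.8, 43.0, 43.9 and 396. None of the 4 was called against healthy over all spots, with folds of 0.74, 1.04, 0.68 and 0.79, and PAN stood far above in all of them. Scaled to the median of ratios, Spp1 was lower than healthy by 1.61-fold and was held. By zone Spp1 was lower in PAN_LS-FMD than in healthy by 2.53-fold in medulla and 1.66-fold in outer stripe spots, and in cortex spots its fold was 1.38. Havcr1 was lower by 1.73-fold in cortex spots, where it had 35 UMIs in PAN_LS-FMD.

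The tubular injury list had 2 of 24 members higher and 2 lower, with a median log2 fold of -0.02. Held against healthy_LS-FMD were Tnfrsf12a, the receptor of the cytokine TWEAK, 1.61-fold higher at 68.7 CPM (not called when scaled to the median of ratios), and Cd44, a hyaluronan receptor, lower than in both uninjected sections, at 7.32 CPM against 11.9 in healthy. The matrix and fibrosis list had 1 of 30 members higher and 4 lower, with a median of -0.03. Lum (lumican, a collagen-binding proteoglycan) at 0.286 CPM against 1.35 and 1.42, and Tnc (tenascin C) at 2.72 against 4.75 and 8.01, were lower than in both uninjected sections, where 2.74% of all list-rule genes were. For the PAN section these medians were 2.06 and 2.80, with 20 of 24 and 29 of 30 members higher than healthy, against 42.8% of all 12977 genes. The interferon, cell cycle and immediate early lists had medians of 0.09, -0.06 and -0.04 in PAN_LS-FMD, with 2 of 21, 0 of 18 and 0 of 12 members higher and 1, 2 and 0 lower. In cortex spots 8 of 21 interferon genes were higher and 1 lower, and in medulla spots 0 were higher and 3 lower. Scaled to the median of ratios, 5 of 18 cell cycle genes were lower.

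Macrophage genes were the list with most members held higher. Of 19 measured members of the macrophage and myeloid list, 9 were higher than healthy, none lower and 10 neither, with a median log2 fold of 0.55 against healthy and 0.52 against healthy_LS-FMD. Held were 6 of them: the complement C1q chains C1qa, C1qb and C1qc, the lysosomal glycoprotein Cd68, the macrophage receptor Adgre1 (F4/80) and Gpnmb. C1qa stood at 95.9 CPM in PAN_LS-FMD, 51.3 in healthy, 48.6 in healthy_LS-FMD and 332 in PAN, 1.87-fold (1.78 to 1.96) over healthy. C1qb was 1.88-fold, Adgre1 1.83-fold and Gpnmb 1.79-fold. Each of these lay above both uninjected sections and below PAN. The 3 C1q genes are neighbours on chromosome 5. The list's summed level was 1040 CPM in PAN_LS-FMD, 789 in healthy, 690 in healthy_LS-FMD and 3584 in PAN. By zone, 10 of 19 members were higher in cortex, 6 of 19 in outer stripe and 6 of 18 in medulla spots, beside the 10.6%, 5.19% and 6.5% of all genes above. Scaled to the median of ratios, 7 of 19 were higher, and Cd68 was no longer called.

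Antigen presentation genes were called mostly in MHC class I. In the MHC class I list 7 of 12 members were higher and 1 lower, with a median log2 fold of 0.76 against healthy and 0.13 against healthy_LS-FMD. RT1-A2 at 352 CPM against 134 and 35.5, and RT1-S3 at 70.0 CPM against 36.5 and 44.6, were held. RT1-CE10 was lower than healthy, at 147 CPM against 308. In the MHC class II list RT1-Bb and RT1-Db1 were higher and the other 5 members neither, with a median of 0.29 against healthy and 0.01 against healthy_LS-FMD. Scaled to the median of ratios the medians were 0.63 and 0.34 for class I and 0.16 and 0.23 for class II, and the difference between the comparisons was not tested. Of the 6 measured B and plasma cell genes, 3 were lower than in both uninjected sections, among them Cd79a and Cd79b, the signalling chains of the B cell receptor, Cd79b at 0.629 CPM against 1.96 and 2.65, while the immunoglobulin gene Ighm was 4.12-fold higher than healthy at 104 CPM and not held. T and NK cell genes had 1 of 10 members higher and 1 lower over all spots, 5 higher and 0 lower in cortex spots, and 0 higher and 2 lower in outer stripe spots. Complement genes had 3 of 12 higher and 2 lower, none held, with the convertase protein Cfb at 1.79-fold.

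Of 8 measured heat shock genes, the chaperones that refold damaged proteins, 5 were higher than healthy and none lower, with a median log2 fold of 0.61 against healthy and 0.28 against healthy_LS-FMD. Hsph1, a co-chaperone of HSP70, stood at 158 CPM against 78.2 in healthy and 116 in healthy_LS-FMD. Hsp90aa1, the inducible HSP90, stood at 455 CPM against 296 and 292, and Bag3, a co-chaperone, at 58.4 against 38.5 and 34.8; these 2 were held. Of the 5, 3 lay within a few percent of 1.5-fold, and with haemoglobin and mitochondrial genes left out of the totals, or scaled to the median of ratios, the count was 2. In the endoplasmic reticulum and amino acid stress list 4 of 16 were higher, none held, among them the chaperone Hspa5 at 404 CPM against 224 and asparagine synthetase Asns at 11.8 against 5.72.

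Tubular segments had few markers called against healthy, apart from the inner medulla and thin limb list, and many called against healthy_LS-FMD. In proximal tubule S1 and S2, 1 of 16 members was higher and 1 lower, with a median log2 fold of -0.08 against healthy and 0.93 against healthy_LS-FMD. In proximal tubule S3, Slc7a12, an amino acid transporter, was held at 260 CPM against 80.2 in healthy and 119 in healthy_LS-FMD, 3.24-fold (3.12 to 3.35). In the thick ascending limb Cldn10 and Cldn19, claudins that set its ion selectivity, were lower than in both uninjected sections, Cldn19 at 33.5 CPM against 62.6 and 108. Inner medulla and thin limb genes had 4 of 8 members lower, all held, with a median of -0.73 against healthy and -3.36 against healthy_LS-FMD. Among them the urea transporter Slc14a1 stood at 0.829 CPM against 1.55 and 18.1 and the betaine transporter Slc6a12 at 2.26 against 4.11 and 72.0. The summed level of this list was 1430 CPM in PAN_LS-FMD, 1304 in healthy and 1702 in healthy_LS-FMD. The sum was thus above healthy although 4 of the 8 measured members were lower and 0 higher. Sum and median differ in direction, so the sum does not show how the members moved as a set. The share of medulla spots was 22.1% in PAN_LS-FMD and 34.6% in healthy_LS-FMD, by scores scaled within each section. How deep each section was cut was not tested. Against healthy_LS-FMD, 12 of 16 proximal tubule S1 and S2 genes were higher, where 5.97% of all list-rule genes were. Lower than healthy_LS-FMD were 9 of 9 principal cell, 7 of 9 intercalated cell and 6 of 8 thick ascending limb genes, beside 17.3% of all list-rule genes. No member of the 9 intercalated cell, 14 organic ion transport or 10 megalin and protein reabsorption genes measured was called against healthy. Slc12a3, the thiazide-sensitive sodium chloride transporter of the distal convoluted tubule, was 1.77-fold over healthy at 455 CPM against 257, and stood at 590 CPM in healthy_LS-FMD.

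Among metabolic genes, the cytochrome P450 and fatty acid oxidation lists had most members called. In the cytochrome P450 list 5 of 18 members were higher and 3 lower, with a median of 0.32, beside 6.8% and 4.53% of all list-rule genes. Held higher were Cyp1a1, Cyp24a1, which inactivates vitamin D, at 72.6 CPM against 35.8 and 24.2, the fatty acid hydroxylase Cyp4a1 at 72.7 against 46.7 and 8.72, and the arachidonic acid epoxygenase Cyp2c23 at 2106 against 1365 and 815. Cyp2c11, a male-type steroid hydroxylase in rat, was held lower at 21.7 CPM against 88.4 and 36.3. Cyp2c23 and Cyp4a1 lay close to 1.5-fold, and scaled to the median of ratios 2 members were higher and 4 lower. Fatty acid synthesis had 2 of 10 members lower, Scd2 and Thrsp, both held, and none higher, with a median of -0.35. Fatty acid oxidation and ketogenesis had 1 of 23 higher and 5 lower, with a median of -0.005, so the list as a set lay near healthy. The 1 higher member and 1 of the 5 lower ones were held. Acaa2, the last enzyme of mitochondrial beta-oxidation, was lower and not held, at 255 CPM against 479 in healthy and 184 in healthy_LS-FMD.

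G6pc, which releases free glucose as the last step of gluconeogenesis, was held at 499 CPM against 307 and 120, 1.62-fold (1.59 to 1.66), and was the called member among 12 of its list; scaled to the median of ratios its fold was 1.49 and it was not called. Cyp27b1, which activates vitamin D, had few UMIs and was held at 0.601 CPM against 0.222 and 0.0395. Epo, the red-cell hormone, was held at 1.12 CPM against 0.461 and 0.316, 2.42-fold (1.44 to 4.11). Sterol synthesis and clock genes had 0 of 17 and 0 of 14 members called against healthy. Scaled to the median of ratios, 2 of the 17 and 1 of the 14 were lower, and none was higher.

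**Figure D5:**
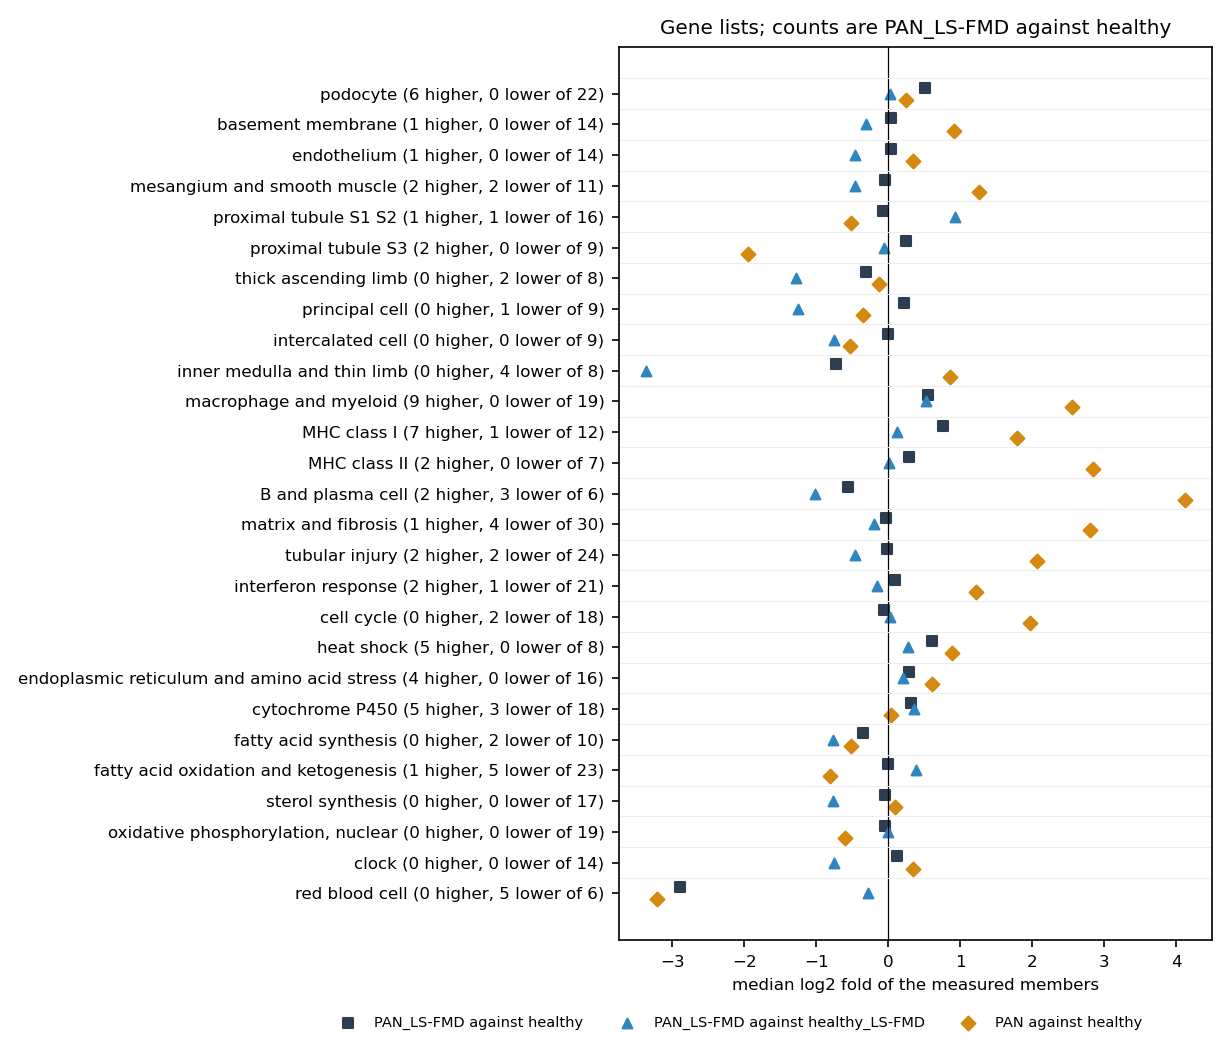
Median log2 fold of the measured members of 27 gene lists on the x axis, for PAN_LS-FMD against healthy (squares), PAN_LS-FMD against healthy_LS-FMD (triangles) and PAN against healthy (diamonds), with the counts of members called against healthy beside each name. Squares lie within 1 log2 unit of 0 in all lists but the red blood cell list, at -2.89, while the PAN diamonds reach 2.80 for matrix and fibrosis and 4.12 for B and plasma cells.

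Some held genes were neighbours on the chromosomes. Order was taken from the RefSeq annotation of GRCr8, in which 9502 of the 9993 genes could be placed by name. Of 142 placed genes that were held higher, 14 (9.86%) lay beside another such gene among the genes compared, against 2.95% of all placed genes. Of 158 held lower, 16 (10.1%) did, against 3.33%. The pairs included Cldn6 with Cldn9 and with Tnfrsf12a, Tube1 with Wisp3 and with Fam229b, Ybx1 with Ppih, Cftr with Cttnbp2, Rgs5 with Rgs4, and S100a9 with S100a11. Called genes that were not held or opposite also lay beside one another more often than all placed genes. Of 337 such higher genes 9.5% did, against 6.9%, and of 92 such lower genes 5.4% did, against 1.9%. All these shares are a description of these sections and were not tested.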

How the data were processed

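Spatial expression was measured in 4 rat kidney sections, 1 for each group. The deposited matrices hold counts, whole-number UMI counts per gene and spot with no normalisation. Per the file headers, the authors made them with Space Ranger 2.0.1 for the healthy section and 1.2.1 for the other 3; build and annotation are not given in the sources used here. Files were assigned to groups by their treatment labels. Spots with at least 500 UMIs were kept, which removed 5 in PAN, 3 in healthy, 3 in PAN_LS-FMD and 2 in healthy_LS-FMD. UMIs were summed per gene and scaled to a total of 1000000 (CPM). Folds have exact 95% intervals of 2 Poisson counts and shares exact Clopper-Pearson intervals, both for counting error only; no p-value was computed. Calculations used Python 3.11.15, numpy 2.4.6, scipy 1.17.1 and pandas 2.3.3, and the intervals and calls were tested on simulated data.

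Named genes were the 12 highest and 12 lowest held genes and the 6 highest and 6 lowest that were not held, without mitochondrial, ribosomal, haemoglobin, provisional and pseudogene symbols, and Nphs1, Wt1, Podxl, Havcr1, Lcn2, Spp1, Col1a1 and RT1-Bb throughout. A few genes chosen in this way are left out of the text. List members with at least 50 UMIs served as examples, up to 5 a list. The members and the 53 lists were chosen with earlier results of these data known. Zone scores were the mean of log2(counts per 10000 + 1) over marker genes, centred and scaled within each section; between 232 and 401 spots a section lay within 0.25 of a second zone. Spots are not cells, so no doublets were called. Barcodes mark slide positions and recur between sections. Alternatives changed the spot and gene minimum, the scaling, the weight and depth of spots, the zone and the fold.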

Additional observations from a re-analysis of the deposited data

How the results depend on the processing

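The count of called genes stayed within 1.5 times of 825, from 553 in medulla spots to 896 with spots weighted equally, for the alternative spot minimums, totals, scalings, weights, depths and zones. Held genes ranged from 224 of 607 called with spots thinned to 5000 UMIs to 356 of 843 with zones weighted equally. Without a gene minimum beyond 1 UMI, 1597 of 17496 genes were called and 634 held. With at least 1000 UMIs per gene 399 were called and 156 held, and with a 2-fold rule 233 were called and 127 held; these rules take more or fewer genes by construction. All 39 called genes named by the rule kept their direction in all 10 alternatives, 390 values in all; most had been chosen for large folds, so this says little of other genes. The fold lay outside its counting interval over all spots for 23 of 44 named genes in cortex, 24 in outer stripe and 23 in medulla spots, 15 with spots thinned and 9 scaled to the median of ratios. Under the median of ratios calls changed for genes named in the text and for other list members. The calls of Bag3, Hsp90aa1, Cyp2c23, Cyp4a1, G6pc, Tnfrsf12a, Cd68, Ccl21 and Gata3 ended, and Spp1 and Nqo1 were called lower. Cyp2c11 and Cd44 were no longer held, and Wt1, Nhlh2, Hspa5 and Hsph1 became held. Cdkn1c and Wnk4 were no longer opposite, and Acaa2 became opposite. Among list members not named elsewhere, the calls of Nkg7, Usp18, Gstp1 and others ended, and Igf1, Srebf1, Myh11 and others were called lower. Of 1058 counts of list members higher or lower, 172 moved by more than 1.5 times, mostly in lists with few called members; the cause was not tested.

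With zone scores centred and not scaled, cortex, outer stripe and medulla took 43.7%, 42.7% and 13.6% of spots in PAN_LS-FMD, 40.7%, 43.4% and 15.9% of spots in healthy, 35.4%, 31.7% and 32.9% of spots in healthy_LS-FMD and 39.6%, 30% and 30.4% of spots in PAN. The sections' depth limits genes under the floor of 3 counts. No paired analysis was possible because each group had 1 section.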

Other observations

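Other cell types and pathways gave few calls against healthy, by the rule for lists, and single genes stood out. In the nephron progenitor list 2 of 7 measured members were higher and 1 lower. Scaled to the median of ratios, 0 of the 7 were higher and 1 was lower. Cited1, a transcriptional co-regulator of the progenitors that form nephrons, was lower than in both uninjected sections. It stood at 1.66 CPM in PAN_LS-FMD, 7.63 in healthy, 4.46 in healthy_LS-FMD and 0.762 in PAN. Among 13 insulin and IGF genes 2 were higher and 1 lower, and the IGF-binding protein gene Igfbp2 was held at 52.1 CPM against 30.4 and 24.8. Fkbp5, a co-chaperone of the glucocorticoid receptor, was the called member among 10 of the glucocorticoid list, at 39.5 CPM against 22.5 in healthy and 71.5 in healthy_LS-FMD. The hypoxia list had 2 of 11 higher, Adm (adrenomedullin, a vessel-widening peptide, 2.06-fold) and Epo. In the vitamin D, calcium and phosphate list 2 of 13 were higher, Cyp24a1 and Cyp27b1.

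Few vessel and stroma genes were called against healthy. Vwf, the von Willebrand factor of endothelium, was the called member among 14 endothelial genes, at 40.6 CPM against 19.7 in healthy and 40.7 in healthy_LS-FMD. Of 11 genes of the list for mesangium and smooth muscle, 2 were higher, among them the transcription factor Gata3, and Cnn1 (calponin) and Rgs5, a marker of pericytes, were lower than in both uninjected sections. Cnn1 stood at 0.772 CPM in PAN_LS-FMD, 2.85 in healthy, 3.12 in healthy_LS-FMD and 13.5 in PAN. The basement membrane list had 1 of 14 higher, the linker protein gene Nid1 at 1.69-fold. The parietal epithelium list had 1 of 6 lower, Cd44.

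In sodium transport and aldosterone genes 2 of 15 were higher, Wnk4 and Slc12a3, and both stood higher still in healthy_LS-FMD. The distal tubule list had Slc12a3 alone of 4 higher, and the principal cell list had Kcne1 of 9 lower, at 5.98 CPM against 12.1. Glycolysis had 2 of 13 higher, with Pgam2 at 2.51-fold, and metal handling had 1 of 10 higher, Mt3 at 1.99-fold. The senescence list had 0 of 10 called, and the mast cell, urothelium and sex-linked lists 0 of 1, 0 of 2 and 0 of 3. Tissue kallikrein genes had 1 of 2 lower, Klk1c3, whose symbol has 2 identifiers. Genes of other tissues gave 1 of 2 adrenal genes higher (Cyp11a1, 4.36-fold, held), 2 of 4 adipocyte genes lower (Car3, and Adipoq at 8.18 CPM against 13.1), and 2 of 3 lymph node and thymus genes higher (Ccl21 and Cxcl13). In the red blood cell list 5 of 6 were lower than healthy, none of them held. What these values owe to tissue at the edge of a section was not tested.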
